A study of Mus musculus with 9 samples.

Results

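The genes described here are 10 members of the aryl hydrocarbon receptor (AhR) pathway, picked by symbol from the 56748 genes of a mouse liver RNA-seq count table. They are Ahr, its partner Arnt, its repressor Ahrr, and the target genes Cyp1a1, Cyp1a2, Cyp1b1, Tiparp, Nqo1, Aldh3a1 and Fmo2, and each matched 1 row. Livers came from C57BL/6J mice aged 7 to 8 weeks at purchase, with 3 libraries in each of 3 groups. The Control libraries carry the label water and the mice received 200 μL of sterile water by mouth each day. DSS mice drank 1.8% dextran sulfate sodium in 3 cycles, each of 1 week of DSS and 1 week of recovery, with the same daily water. Indirubin mice carry the DSS treatment as well and received indirubin at 1 g/kg each day in 200 μL of water. The design text describes colitis mice divided into all 3 groups, while the Control label names water only, so whether the Control mice drank DSS is not settled by the labels. No label states whether the 3 libraries of a group come from separate mice, so the p-values measure only the spread between these libraries.

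The AhR is a ligand-activated transcription factor that waits in the cytoplasm in a complex with the chaperone HSP90. On binding a ligand, for example a dioxin, a tryptophan metabolite or indirubin, it moves to the nucleus, pairs with ARNT and binds DNA at xenobiotic response elements whose core reads GCGTG. Its best known liver targets are the cytochromes P450 CYP1A1 and CYP1A2, which oxidise polycyclic aromatic compounds and caffeine, and the feedback genes Ahrr and Tiparp, which limit the receptor.

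The sequences upstream of 3 members are shown because they differ in that core, and because Cyp1a1 and Ahrr were counted in indirubin livers alone while Cyp1a2 was counted in every library. They are the 250 bases before the transcription start from RefSeq, build GRCm38.p6, matched by symbol, and the table held 8 of the 10 members, without Ahr and Aldh3a1. Capitals mark GCGTG, on either strand. The windows are chr9:57697363-57697612 (plus strand) for Cyp1a1, chr9:57683656-57683905 (minus strand) for Cyp1a2 and chr13:74292332-74292581 (minus strand) for Ahrr.
Cyp1a1: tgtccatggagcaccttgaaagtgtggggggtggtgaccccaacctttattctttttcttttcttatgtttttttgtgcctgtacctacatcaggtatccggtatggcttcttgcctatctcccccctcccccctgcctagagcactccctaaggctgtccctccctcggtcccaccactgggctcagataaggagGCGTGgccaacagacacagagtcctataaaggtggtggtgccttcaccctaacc
Cyp1a2: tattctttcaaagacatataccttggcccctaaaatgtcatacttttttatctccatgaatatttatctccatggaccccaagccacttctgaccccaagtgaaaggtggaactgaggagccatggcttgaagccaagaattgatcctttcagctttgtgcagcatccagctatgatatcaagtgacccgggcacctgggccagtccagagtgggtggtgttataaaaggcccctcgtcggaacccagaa
Ahrr: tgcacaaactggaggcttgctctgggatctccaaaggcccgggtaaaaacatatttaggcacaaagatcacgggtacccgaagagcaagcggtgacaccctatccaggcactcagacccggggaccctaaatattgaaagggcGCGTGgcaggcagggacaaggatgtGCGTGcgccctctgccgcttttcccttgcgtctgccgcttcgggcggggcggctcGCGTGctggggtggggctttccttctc
The core stood 50 bases before the start of Cyp1a1, and at 103, 78 and 23 bases before that of Ahrr. Arnt, Cyp1b1 and Tiparp held 1 match each, at 25, 72 and 166 bases, the last 2 on the opposite strand. No match lay in the windows of Cyp1a2, Nqo1 or Fmo2. Of all 32851 such windows, 28.2% held the core. The longer form TNGCGTG, which contains it, was found in the Ahrr window alone among the members and in 4.1% of all windows. A match in so short a window is a description of letters and not of binding.

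The 9 libraries held 6514863 to 7944684 counts, of which 71.6% to 91.3% fell on mitochondrial genes, leaving 569044 to 2132208 nuclear counts. Levels are normalized CPM (a gene's share of all counts, scaled up to a common library size), scaled by the trimmed mean of M-values over the 9 libraries, as mean ± SD over 3 libraries. All 8 hepatocyte markers (Alb, Apoa1 and others) were detected in every library. Transcripts of 14 pancreatic acinar genes summed to 8.63 to 23.4 CPM in Control, 0 to 3.08 CPM in DSS, 10.3 CPM in Indirubin-1 and about 1594 CPM in both Indirubin-2 and Indirubin-3, where all 14 were detected. Summed neutrophil markers reached 1.17 to 3.17 CPM in Control, 11.5 to 19.8 CPM in DSS and 27.9 to 248 CPM in Indirubin. In bulk liver, fewer cells of a type and less RNA per cell cannot be told apart.

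The receptor and its partner were counted at low levels in every group. Ahr (ENSMUSG00000019256, chr12:35547973-35585037, minus strand, GRCm39) had 14, 21 and 0 counts in the Control libraries, 8, 13 and 10 in DSS, and 10, 35 and 18 in Indirubin. The 3 groups overlapped, with means of 2.14 ± 1.92, 1.39 ± 0.793 and 2.09 ± 0.691 CPM (SD, n = 3 each). Arnt (ENSMUSG00000015522, chr3:95341699-95404551, plus strand), the dimer partner of the AhR, had 22, 11 and 14 counts in Control, 40, 18 and 31 in DSS, and 20, 48 and 53 in Indirubin. Its means of 3.21 ± 1.18, 3.59 ± 1.01 and 4.06 ± 0.467 CPM overlapped as well. The fitted log2 difference of Ahr between Indirubin and DSS was 0.60 (SE 1.08, edgeR quasi-likelihood adjusted p = 0.978), and that of Arnt was 0.18 (SE 0.64, adjusted p = 0.987). Neither difference exceeded its standard error, which is no evidence that the genes did not change.

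**Figure D1:**
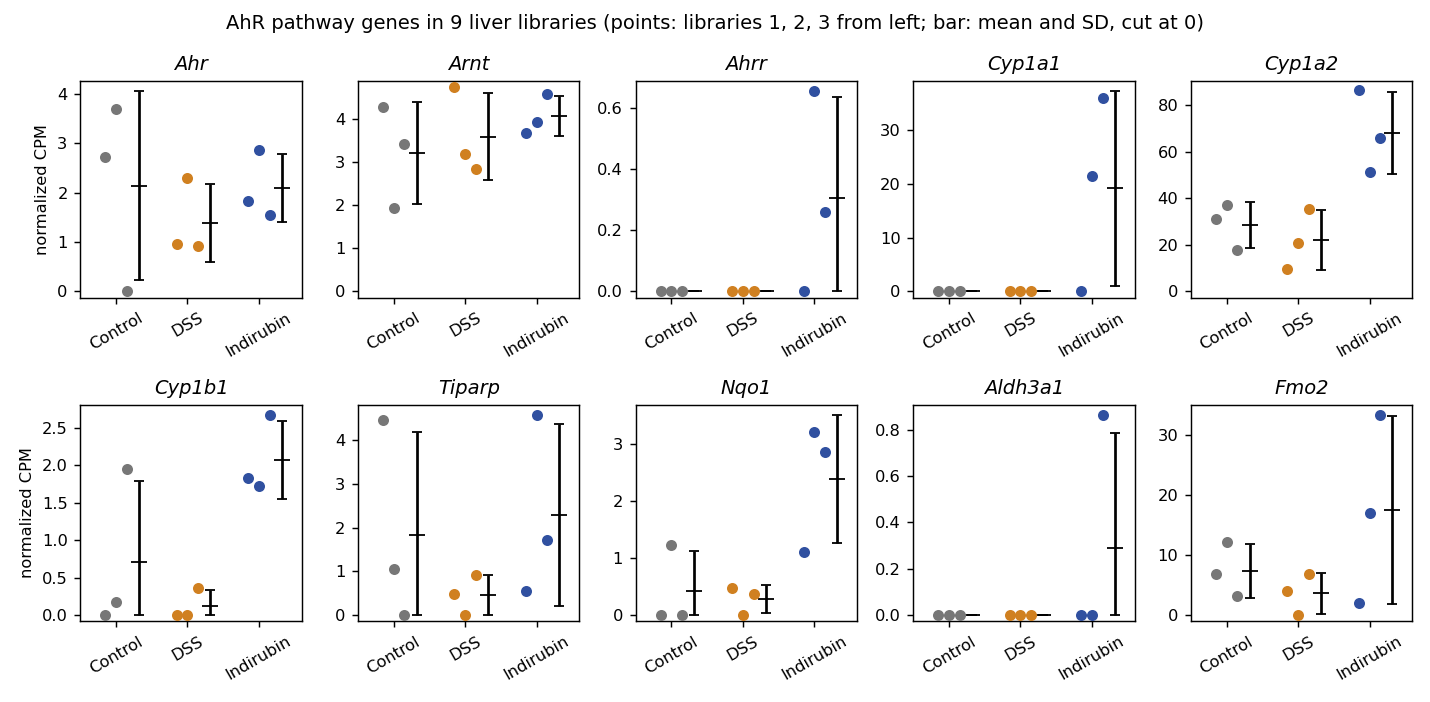
Normalized CPM (vertical axes, each with its own range) of the 10 AhR pathway genes in the 3 libraries of Control, DSS and Indirubin, with each library as a point and the group mean with SD as a bar. Cyp1a2 lies higher in all 3 Indirubin libraries than in any other, while Cyp1a1 stands at 0 in 7 libraries.

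Cyp1a2 was the member counted at the highest level, and the 3 Indirubin libraries all lay above the other 6. The gene (ENSMUSG00000032310, chr9:57584220-57590986, minus strand) had 159, 211 and 73 counts in Control, 80, 118 and 386 in DSS, and 471, 627 and 763 in Indirubin. As normalized CPM these were 30.9, 37.2 and 17.8 in Control, 9.48, 20.9 and 35.3 in DSS, and 86.5, 51.4 and 65.9 in Indirubin. The level was highest in Indirubin-1, the library of that group with the lowest acinar sum. Group means were 28.6 ± 9.90, 21.9 ± 12.9 and 67.9 ± 17.6 CPM (SD, n = 3 each).

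Between Indirubin and DSS the fitted log2 fold change of Cyp1a2 was 1.63 (SE 0.49, edgeR unadjusted p = 0.00579, adjusted p = 0.436). Against Control it was 1.27 (SE 0.39, edgeR unadjusted p = 0.00681, adjusted p = 0.174). Neither passed an adjusted threshold of 0.05. The exact permutation test of the levels gave p = 0.1 in both comparisons, the smallest that 3 against 3 allows. DSS against Control gave −0.36 (SE 0.43, edgeR adjusted p = 1.00), with overlapping libraries. Scaling by library size alone turned this to 0.39 and moved the median of all genes from 0.01 to 0.70, so that relative to the median Cyp1a2 stood at −0.37 and −0.31. Under the same change the median moved from 0.15 to 0.43 for Indirubin against DSS and from 0.13 to 1.11 against Control, and Cyp1a2 stood 1.32 to 1.48 and 1.03 to 1.15 above it. With Indirubin-2 and Indirubin-3 left out, so that Indirubin-1 alone stands for its group, its log2 fold change was 1.98 against DSS and 1.58 against Control.

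Cyp1a1 was counted in 2 of the 9 libraries. This gene (ENSMUSG00000032315, chr9:57595211-57611107, plus strand) lies beside Cyp1a2 on the opposite strand. It had 0 counts in all 3 Control libraries, all 3 DSS libraries and Indirubin-1, then 262 in Indirubin-2 and 417 in Indirubin-3. Its mean in Indirubin was 19.2 ± 18.1 CPM (SD, n = 3), at least 49.5-fold higher than DSS and at least 31.2-fold higher than Control, where each library at 0 is set to a floor of 3 counts. The Indirubin group overlapped both others because of Indirubin-1, and the gene did not pass the filter on low counts, so the test was not run on it.

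As CPM over nuclear counts alone, Cyp1a1 reached 137 (exact binomial 95% interval 121 to 155) in Indirubin-2 and 235 (213 to 259) in Indirubin-3, and 0 in Indirubin-1 (interval 0 to 5.26). Intervals and floors cover counting error only. At the nuclear depth of Indirubin-1 the rates of the other two would give 96.2 and 165 counts, against 0 observed. Cyp1a1 and Cyp1a2 are similar genes whose reads can be shared, and how the counting split them was not tested. Indirubin-1 held 471 counts of Cyp1a2 and 0 of Cyp1a1. Per kilobase of gene length, Cyp1a1 stood at 30.2% of Cyp1a2 in Indirubin-2 and 39.5% in Indirubin-3.

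The 2 libraries with Cyp1a1, which also hold the highest Fmo2 levels, are those with high acinar transcripts. Their mitochondrial shares were 71.6% and 77.2% against 89.5% in Indirubin-1, with 17389 and 15201 genes detected against 14467. DSS-3, with a mitochondrial share of 72.4% and 13645 genes detected, had 0 counts of Cyp1a1. Summed neutrophil markers also stood highest in Indirubin-2 and Indirubin-3, at 248 and 88.5 CPM, against 27.9 CPM in Indirubin-1. The part of the acinar transcripts, of the neutrophil markers and of these library measures in the result was not tested. The genes whose profile over the 9 libraries lay nearest to that of Cyp1a1, by root-mean-square distance of centred log2 CPM, were Mt2 at 0.917, Cep85 at 1.05 and the acinar lipase gene Pnliprp1 at 1.08, against a median of 2.85 over 9713 genes. For Cyp1a2 the nearest were Dhx32 (0.346), Mta2 (0.395) and Becn1 (0.414), with a median of 1.27 over 9712 genes. For Ahr the nearest included Pofut2 (0.310) and Fnip1 (0.450), with a median of 1.43 over as many genes.

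**Figure D2:**
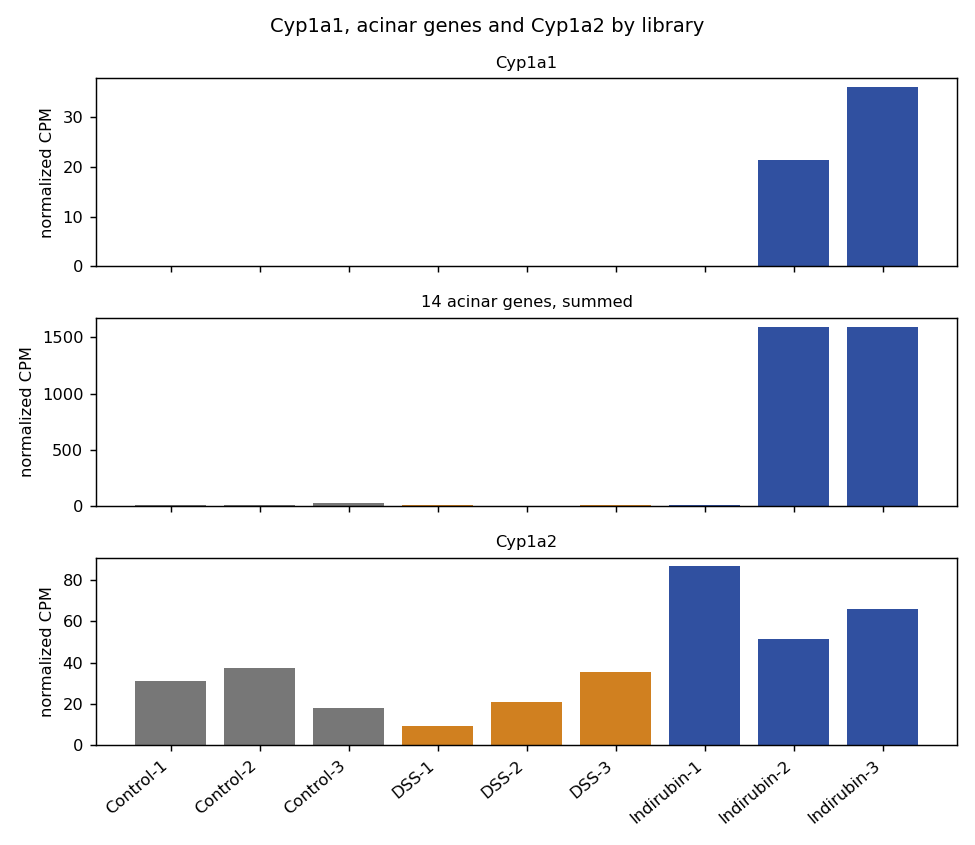
Normalized CPM (vertical axes) in each of the 9 libraries for Cyp1a1, the sum of 14 acinar genes, and Cyp1a2. Cyp1a1 and the acinar sum are high in Indirubin-2 and Indirubin-3, whereas Cyp1a2 is highest in Indirubin-1 at 86.5 CPM.

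Fmo2 and Cyp1b1 had their highest counts in Indirubin libraries. Fmo2 (ENSMUSG00000040170, chr1:162701886-162726295, minus strand), a flavin monooxygenase of xenobiotic metabolism, had 35, 69 and 13 counts in Control, 34, 0 and 74 in DSS, and 11, 208 and 387 in Indirubin. Only Indirubin-2 and Indirubin-3 stood above the other libraries, and Indirubin-1 lay within the DSS range, so the groups overlapped. Its log2 fold change was 2.25 (SE 1.02, edgeR unadjusted p = 0.0470, adjusted p = 0.641) against DSS and 1.29 (SE 0.75, adjusted p = 0.495) against Control. Leaving out each library gave 1.39 (without Indirubin-3) to 3.04 (without DSS-3) against DSS and 0.44 (without Indirubin-3) to 1.80 (without Control-2) against Control. With both acinar-high libraries left out, which leaves Indirubin-1 as the only library of its group, these became −0.85 (SE 1.68) and −1.87 (SE 0.94), and the lone library is assumed to vary like the other group. DSS against Control gave −0.98 (SE 0.92, edgeR adjusted p = 0.984).

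Cyp1b1 (ENSMUSG00000024087, chr17:80008966-80022490, minus strand), a P450 of steroid and hydrocarbon oxidation found mostly outside hepatocytes, had 0, 1 and 8 counts in Control, 0, 0 and 4 in DSS, and 10, 21 and 31 in Indirubin. The Indirubin libraries lay above the DSS libraries, and the log2 fold change was 3.80 (SE 1.67, edgeR unadjusted p = 0.0418, adjusted p = 0.628). The gene passed the low-count filter through its Indirubin libraries alone, so that value had to differ. Against Control, with overlapping libraries, it was 1.61 (SE 1.30, edgeR adjusted p = 0.651). Cyp1b1 passed the filter there too through its Indirubin libraries alone, so a positive value was favoured in advance. Leaving out each library gave 3.18 (without DSS-1) to 7.18 (without DSS-3) against DSS and 0.99 (without Control-1) to 4.30 (without Control-3) against Control. The value of 7.18 is a fit against DSS libraries that are both at 0 and is no measure of size. Summed stellate markers, a cell type known to carry this gene, ranged from 63.5 to 104 CPM in DSS, 95.5 to 175 CPM in Indirubin and 121 to 187 CPM in Control, and their part was not tested.

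Nqo1, Tiparp, Ahrr and Aldh3a1 had few counts, with 0 in at least 1 Control library and 1 DSS library each. Nqo1 (ENSMUSG00000003849, chr8:108114857-108129838, minus strand), a quinone reductase that NRF2 also controls, had 0, 7 and 0 counts in Control, 4, 0 and 4 in DSS, and 6, 39 and 33 in Indirubin. All Indirubin libraries lay above DSS in CPM, with a mean of 2.38 ± 1.12 against 0.280 ± 0.248, and they overlapped Control. Tiparp (ENSMUSG00000034640, chr3:65435831-65462939, plus strand), an ADP-ribosyltransferase that represses the AhR, had 23, 6 and 0 counts in Control, 4, 0 and 10 in DSS, and 3, 56 and 20 in Indirubin, and all groups overlapped. The log2 fold change of Tiparp in Indirubin against Control was 0.35 (SE 1.20, edgeR adjusted p = 0.944). Leaving out each library gave −0.63 to 2.03, so its direction turned.

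Ahrr (ENSMUSG00000021575, chr13:74359237-74440450, minus strand), the AhR repressor, had 8 counts in Indirubin-2, 3 in Indirubin-3 and 0 elsewhere. Aldh3a1 (ENSMUSG00000019102, chr11:61098363-61109247, plus strand), an aldehyde dehydrogenase, had 10 counts in Indirubin-3 and 0 in the other 8 libraries. At these depths a lower level in the other groups cannot be told from 0.

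Ordered per kilobase in Indirubin, the levels were 33.7 CPM per kb for Cyp1a2, 6.88 for Cyp1a1, 3.12 for Fmo2 and 1.53 for Nqo1. Then followed Tiparp at 0.525, Arnt at 0.507, Cyp1b1 at 0.356 and Ahr at 0.339 CPM per kb. Aldh3a1 at 0.148 and Ahrr at 0.0323 came last. The range of Cyp1a2 over the 3 libraries lay above that of Cyp1a1. The ranges of every other pair of neighbours in this order overlapped, those of Arnt and Cyp1b1 only barely. Within each library Nqo1 stood above Tiparp and Arnt above Cyp1b1.

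No member passed an adjusted p of 0.05 in any of the 3 comparisons. For Indirubin against DSS 9117 genes were tested and 0% were called at an adjusted p under 0.05 with edgeR, while the DESeq2 Wald test called 80. At an unadjusted edgeR p below 0.05, 406 genes (4.45%) were higher in Indirubin and 294 genes (3.22%) were lower. Of 5 members tested, Cyp1a2 and Fmo2 were higher at that unadjusted p and Cyp1a2 did not overlap. Cyp1b1 met both as well, but it entered the test through its Indirubin libraries alone and is not counted as support. These stand beside 10.5% of all tested genes higher and 5.90% lower without overlap. The comparison with DSS leaves out 5 members that the filter removed, which is why these counts describe those tested only.

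For DSS against Control 7482 genes were tested and 0.708% were called, and none of 4 members tested was at an unadjusted p under 0.05 (3.48% of all genes higher, 4.05% lower), nor without overlap (7.91% higher, 8.21% lower). For Indirubin against Control 8059 genes were tested and 0.236% were called. Of 6 members tested, 1 (Cyp1a2) was higher at the unadjusted p (7.45% of all genes higher, 6.38% lower) and did not overlap (12.7% higher, 9.07% lower). Cyp1b1 entered this test too through its Indirubin libraries alone. The 3 comparisons share libraries, so their values are not independent.

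**Figure D3:**
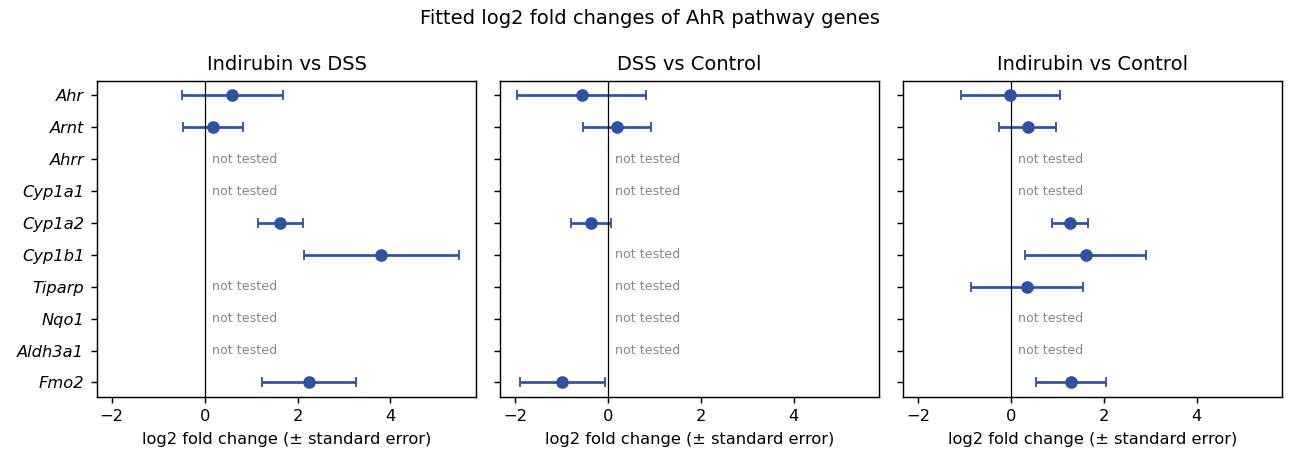
Fitted log2 fold change (horizontal axis) with its standard error for each AhR pathway gene that passed the low-count filter, in the 3 comparisons. Cyp1a2 lies at 1.63 and 1.27 in the Indirubin comparisons with the shortest bars, and genes marked not tested fell under the filter.

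**Figure D4:**
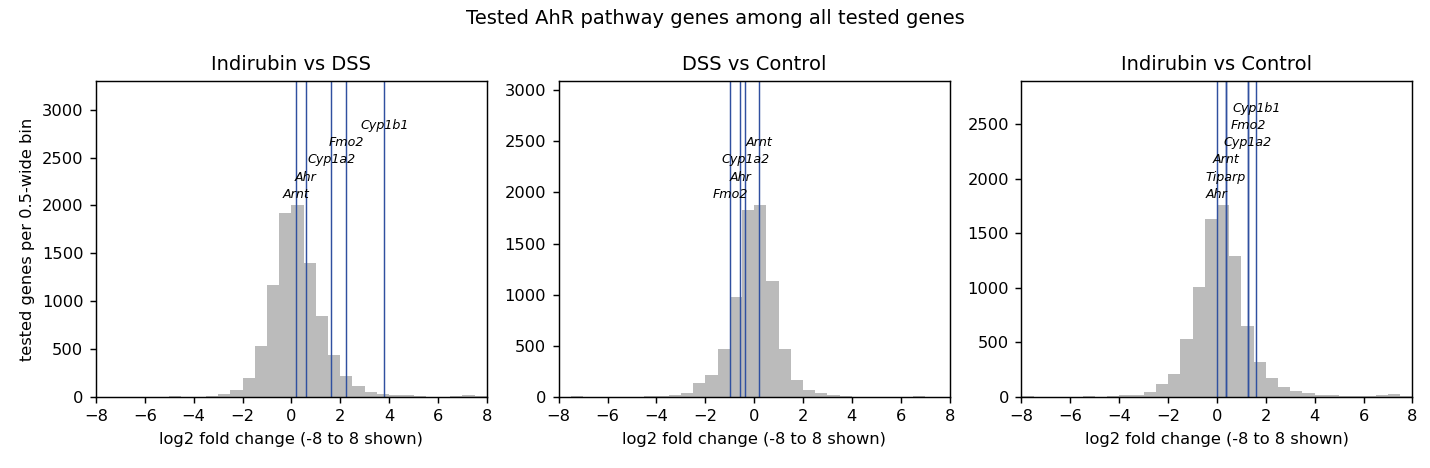
Number of tested genes (vertical axis) in bins of log2 fold change (horizontal axis) for each comparison, with the tested AhR pathway genes as lines. Cyp1a2 at 1.63 and Cyp1b1 at 3.80 lie in the upper part of the Indirubin against DSS distribution, and Ahr and Arnt near its centre.

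No gene of the receptor complex passed the test. Among 11 chaperones and coregulators of the AhR, 10 were tested between Indirubin and DSS, 5 higher and 5 lower, with a median log2 difference of 0.05 beside 0.15 for all genes. Crebbp, a histone acetyltransferase, had 6, 4 and 11 counts in DSS and 90, 51 and 90 in Indirubin. Its log2 difference was 3.51 (SE 0.71, edgeR adjusted p = 0.288), and it owed its place in the test mainly to its Indirubin libraries. Hsp90aa1, an HSP90 gene, was lower at −0.81 (edgeR adjusted p = 0.723). Hsp90ab1, an HSP90 gene counted at a higher level, overlapped, with 79.9 to 107 CPM in DSS and 93.6 to 108 CPM in Indirubin. Among 10 other bHLH-PAS genes 4 were tested, and Epas1, the HIF-2α gene, stood at 1.07 (adjusted p = 0.618).

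Other AhR-responsive genes lay on both sides of 0. Of 20 listed, 13 were tested between Indirubin and DSS, 8 higher and 5 lower, with a median of 0.36 and 2 at an unadjusted edgeR p below 0.05, Xdh (xanthine dehydrogenase, 1.31) and Socs2 (a STAT5 feedback gene, 1.78), beside 4.45% of all tested genes higher and 3.22% lower. Xdh stood at 8.45 CPM in Indirubin-1, within the DSS range of 3.72 to 11.4, and at 24.0 and 28.0 CPM in the acinar-high Indirubin-2 and Indirubin-3. Socs2 was at −0.41 for Indirubin against Control and at −2.16 for DSS against Control. Por, the electron donor of P450 enzymes, was at 1.16. It stood at 8.45 CPM in Indirubin-1, below the DSS range of 8.51 to 15.8, and at 17.9 and 54.3 in Indirubin-2 and Indirubin-3. Ugt1a1, the bilirubin glucuronosyltransferase, was at −0.87. Ugt1a genes share exons, so their counts are uncertain. Between DSS and Control 3 of 13 were higher and 10 lower, with a median of −0.34. Of 16 NRF2 targets 14 were tested between Indirubin and DSS, 9 higher and 5 lower, with a median of 0.21. Hmox1, the haem oxygenase gene, stood at 1.79 (SE 0.46, edgeR adjusted p = 0.433) and G6pdx at 1.36. Gclc stood at −0.99, Gstm3 at −0.98 and Gsta4 at −1.02. The summed levels of the list were 234 to 308 CPM in DSS and 236 to 323 CPM in Indirubin. Hmox1 was at 13.2 CPM in Indirubin-1, above the DSS range of 6.91 to 9.23 and within the Control range of 12.2 to 14.4. In Indirubin-2 and Indirubin-3 it was at 33.9 and 34.4 CPM. The part of the acinar transcripts in these values was not tested. Of 8 relatives of the oxidase and dehydrogenase members 7 were tested between Indirubin and DSS, 3 higher and 4 lower. Aldh1a1 stood at −1.07 (edgeR adjusted p = 0.628). Of 6 relatives of Tiparp 5 were tested between Indirubin and DSS, 4 higher and 1 lower. Between DSS and Control all 6 were tested and 5 were lower, with a median of −1.78 beside 0.01 for all genes and 4 at an unadjusted edgeR p below 0.05, among them Parp10 at −2.90 (adjusted p = 0.305) and Parp9 at −1.71 (adjusted p = 0.330). Of all genes tested there, 4.05% were lower and 3.48% higher at that p. None of these 6 lists held a gene at an adjusted p under 0.05 in any of the 3 comparisons.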

How the data were processed

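The deposited table gives raw read counts per gene for 9 liver libraries, each built from 400 ng RNA and read on a DNBSEQ instrument. The authors' processing notes name the build GRCm39. The aligner, counter, annotation and strand setting are not given in the sources used here. The FPKM and comparison columns of the table hold normalized levels and the study's own fold changes and p-values, and were not used, nor were the gene lists per group.

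Gene lengths were those of the deposited table. Comparisons used edgeR 4.0.16 (R 4.3.3) with quasi-likelihood tests, TMM scaling and its low-count filter (minimum count 10, total 15), each fitted on its own 6 libraries, with Benjamini-Hochberg adjustment over all tested genes. Levels used TMM over all 9 libraries. Centred profiles used a prior count of 2. DESeq2 1.42.0 and other scalings, filters and library subsets were alternatives. The script was tested on simulated counts. No replicate pair was identical (r of log2 CPM 0.671 to 0.801). Replicate numbers did not pair the samples.

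The members and gene lists were chosen with earlier results of these data known. Named genes are all 10 members, up to 3 genes of smallest p each way in each list, and the 3 nearest profiles to Ahr, Cyp1a1 and Cyp1a2, of which some are not reported here. Figures used matplotlib 3.10.9.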

Additional observations from a re-analysis of the deposited data

How the results depend on the processing

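The number of genes called depended on the setting. For Indirubin against DSS it was 0 as reported, 2 with library size alone, 80 with the DESeq2 Wald test, 156 without the low-count filter, 2 with at least 10 counts in every library, 4 with all 9 libraries in one fit and 0 to 134 on leaving out each library. For DSS against Control it was 53 as reported and then 19, 143, 125, 84, 11 and 12 to 64. For Indirubin against Control it was 19 as reported and then 266, 316, 379, 72, 56 and 1 to 465. With the replicate number as a block it was 3, 30 and 49. The replicate numbers do not pair the samples, since same-numbered libraries correlated at −0.0206 to 0.0280.

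Members called were 0 in each comparison. For Indirubin against DSS they were 2 without the filter (Cyp1a1, adjusted p = 2.95e-18, and Fmo2, adjusted p = 0.0396) and 0 to 1 on leaving out each library, where Cyp1a1 was called without Indirubin-1 (edgeR adjusted p = 2.47e-04). For Indirubin against Control they were 1 by library size alone (Cyp1a2, 2.14, adjusted p = 0.0433), 1 without the filter and 0 to 1 on leaving out each library (Cyp1a1 without Indirubin-1, adjusted p = 2.20e-04). Without Indirubin-1, Cyp1a1 entered the test through the 2 libraries where it is high alone, so these calls had to follow and support nothing. With Indirubin-1 kept and a DSS library left out, Cyp1a1 was tested and not called (edgeR adjusted p = 0.341 to 0.467). With a Control library left out it was not called either (edgeR adjusted p = 0.258 to 0.332). The cause of the other changes was not tested. Leaving out each library gave Cyp1a2 1.17 to 2.16 and 0.93 to 1.47 in the Indirubin comparisons. Without both acinar-high libraries it was 1.98 and 1.58, and in the other alternatives it lay between 1.50 and 1.76, and 1.24 and 2.14.

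Directions that turned, none of them called: without both acinar-high libraries, an alternative chosen after seeing the data that leaves Indirubin-1 alone, Fmo2 was −0.85 against DSS and −1.87 against Control and Tiparp −1.72 against Control. By library size alone Cyp1a2 was 0.39 for DSS against Control and Ahr 0.97 for Indirubin against Control. With the block Ahr was 0.10 and 0.57 in these. Leaving out each library gave −1.21 to 0.050 for Ahr and −0.084 to 0.44 for Arnt in DSS against Control, and −0.61 to 0.58 for Ahr and −0.63 to 2.03 for Tiparp in Indirubin against Control. Of 211 values of members, 194 kept direction and side. By library size alone the share of higher among genes at an unadjusted p under 0.05 moved from 58.0% to 79.8%, from 46.2% to 92.2% and from 53.9% to 95.2%.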
